A study of Mus musculus with 12 samples.

Results

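Expression of 10 genes that carry glucose carbon through glycolysis, move lactate across the plasma membrane or follow oxygen supply (Hk1, Hk2, Pfkp, Pgk1, Pkm, Ldha, Slc16a1, Slc16a3, Pdk1 and P4ha1) was described in 3 mesenchymal mouse breast cancer lines after knockdown of Nrf2. The genes were listed by name and were found by symbol, 10 of 24454 genes in the table. The labels assign MT∆Ecad to MMTV-Neu tumours of the mammary gland, and Py2T LT and PyMT-1099 LT to MMTV-PyMT tumours. The name MT∆Ecad marks a deletion of the E-cadherin gene, Cdh1, which the labels do not spell out and which its siNrf2 and siCtl cultures share. Cells of each line were transfected for 48 hours with a Dharmacon siRNA that targets Nrf2 (siNrf2) or with a non-targeting one (siCtl), and RNA of 2 replicate cultures of each line and siRNA was sequenced, 12 libraries in 6 groups. All 6 groups received an siRNA, so no group shows untransfected cells, and each line stands for 1 line only.

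Glycolysis turns glucose into pyruvate. Hexokinase traps glucose as its phosphate, phosphofructokinase makes the committed step, phosphoglycerate kinase and pyruvate kinase yield ATP, and lactate dehydrogenase reduces pyruvate to lactate, which leaves the cell through monocarboxylate transporters. Pyruvate dehydrogenase kinases phosphorylate and inhibit pyruvate dehydrogenase, the mitochondrial complex that turns pyruvate into acetyl-CoA. At low oxygen, hypoxia-inducible factors bind a short DNA core near many of these genes and raise their transcription. P4ha1 encodes a catalytic subunit of the enzyme that hydroxylates proline in collagen, and is a known target of the same factors. Nrf2, encoded by Nfe2l2, switches on antioxidant and detoxification genes by binding antioxidant response elements.

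After siNrf2, Slc16a1, which encodes the lactate transporter MCT1, fell over the mean of the 3 lines. Pdk1, P4ha1 and Hk2 rose over this mean by small amounts. The values lay furthest from 0 in MT∆Ecad for Slc16a1, Pdk1 and P4ha1, and in PyMT-1099 LT for Hk2. The log2 differences of Pdk1 and P4ha1 were −0.05 and −0.04 in Py2T LT and 0.10 and 0.13 in PyMT-1099 LT, not called. In fits without 1 library, which do not pair the replicates, the average call held in all 12 for Slc16a1, in 5 for P4ha1, 3 for Pdk1 and 1 for Hk2. With same-numbered libraries paired, these genes and Hk1 and Pfkp were called over this mean, where 40.0% of tested genes were called. Pkm and Ldha were the most abundant messages of the set. Ldha was not called in any comparison of siNrf2 with siCtl, and Pkm only in MT∆Ecad when replicates were paired. The lines differed more than the siRNAs for some genes. Under siCtl, Pfkp stood at 190 CPM (counts per 1000000 reads) in MT∆Ecad and at 4 to 7 reads a library in PyMT-1099 LT, and Pdk1 at 34.5 CPM in MT∆Ecad and 3.48 CPM in Py2T LT.

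The promoter windows of 4 members are shown because these genes moved with siNrf2 in MT∆Ecad, 3 of them upward and Slc16a1 downward. Each window runs from 250 bases before to 50 bases after a start site (GRCm38.p6), read 5′ to 3′ on the strand of the gene. The site is the most upstream of those that have a window, which need not be the end of the RefSeq gene. For Pfkp (gene end 6649060) the whole window lies inside the RefSeq gene. For P4ha1 (gene start 59323197) the start site of the window does. Capitals mark the core bound by hypoxia-inducible factors, ACGTG or GCGTG, on either strand (CACGT or CACGC where it lies on the other strand). The windows are chr2:71872974-71873273 on the plus strand for Pdk1, chr10:59323046-59323345 on the plus strand for P4ha1, chr13:6648722-6649021 on the minus strand for Pfkp and chr3:104638414-104638713 on the plus strand for Slc16a1.
Pdk1: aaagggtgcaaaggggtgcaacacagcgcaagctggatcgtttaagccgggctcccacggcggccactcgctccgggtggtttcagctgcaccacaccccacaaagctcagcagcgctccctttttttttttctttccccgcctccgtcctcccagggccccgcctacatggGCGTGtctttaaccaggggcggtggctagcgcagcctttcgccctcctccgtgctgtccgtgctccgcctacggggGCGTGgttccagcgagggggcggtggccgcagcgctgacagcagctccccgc
P4ha1: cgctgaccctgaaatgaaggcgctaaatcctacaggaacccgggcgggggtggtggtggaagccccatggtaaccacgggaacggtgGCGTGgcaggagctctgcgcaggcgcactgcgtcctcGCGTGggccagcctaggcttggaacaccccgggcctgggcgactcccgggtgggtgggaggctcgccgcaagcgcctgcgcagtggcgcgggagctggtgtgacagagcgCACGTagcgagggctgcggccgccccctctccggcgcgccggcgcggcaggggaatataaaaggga
Pfkp: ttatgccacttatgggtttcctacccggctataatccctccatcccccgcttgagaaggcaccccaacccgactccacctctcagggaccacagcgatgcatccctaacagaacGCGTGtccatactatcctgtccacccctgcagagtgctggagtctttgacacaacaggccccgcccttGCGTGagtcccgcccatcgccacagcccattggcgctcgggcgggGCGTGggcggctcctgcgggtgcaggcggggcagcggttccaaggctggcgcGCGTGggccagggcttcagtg
Slc16a1: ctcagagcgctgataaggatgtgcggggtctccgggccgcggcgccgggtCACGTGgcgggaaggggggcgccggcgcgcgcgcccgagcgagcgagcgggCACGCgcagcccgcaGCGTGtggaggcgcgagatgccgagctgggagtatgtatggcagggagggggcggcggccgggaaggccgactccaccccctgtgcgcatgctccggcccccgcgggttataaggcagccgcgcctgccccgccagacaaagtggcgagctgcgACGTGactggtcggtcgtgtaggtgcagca
The Pdk1 window held 2 matches to the core, P4ha1 3, Pfkp 4 and Slc16a1 5. In Slc16a1, 2 of the 5 overlap as the palindrome CACGTG, 200 bases before the start. Slc16a1 and P4ha1 also held 1 match each to TGACNNNGC, the core of an antioxidant response element, searched on both strands. It lay 207 bases before the start site of the Slc16a1 window on the other strand. In P4ha1 it lay 26 bases before the start site of the window, inside the RefSeq gene.

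All 10 members had a promoter window, and 8 of their 10 most upstream windows (80.0%) held the hypoxia core, all but those of Hk1 and Pkm. The windows of Ldha and Slc16a3, like that of Pfkp, lie wholly inside the RefSeq gene, so most upstream refers to the windows only. Of the same windows of the 9925 tested genes with an entry, 63.8% held it, and of all 27025 genes 43.8%, so the core is common at these lengths. A second window of Hk1 and of Pkm, at a start site further downstream, held 5 and 2 matches. CACGTG lay in the windows of Ldha and Slc16a1, 2 of 10, against 10.4% of tested genes, and TGACNNNGC in 2 of 10, against 14.7%. A match to these letters is a description of the sequence and not a binding site.

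The libraries held 27088970 to 37070635 reads, recovered from the steps of the CPM values. Nfe2l2 was left at 25.2% of its siCtl mean in siNrf2 cells of MT∆Ecad, 26.8% in Py2T LT and 26.1% in PyMT-1099 LT, with every siNrf2 library below both siCtl libraries of its line. Of 10 mesenchymal markers, all 10 averaged at least 1 CPM in MT∆Ecad and Py2T LT, against 7 in PyMT-1099 LT, where Twist1, Snai2 and Prrx1 were at 0. Cdh1, the epithelial cadherin, was at 0.315 to 0.639 CPM in MT∆Ecad, 12.5 to 18.1 in Py2T LT and 47.8 to 62.1 in PyMT-1099 LT, so Py2T LT and PyMT-1099 LT kept some of this epithelial message. Of 11 epithelial markers 3 averaged at least 1 CPM in MT∆Ecad, 9 in Py2T LT and 5 in PyMT-1099 LT, with Epcam at 16.7 to 30.8 CPM in Py2T LT. The summed mesenchymal markers stood at 16588 to 17495 CPM in siNrf2 and 12108 to 12691 CPM in siCtl libraries of MT∆Ecad, mostly through Fn1. They stood at 11708 to 12032 and 10819 to 11657 CPM in Py2T LT, and at 10780 to 11381 and 9965 to 10312 CPM in PyMT-1099 LT. The summed 11 epithelial markers stood at 4541 to 5414 CPM in siNrf2 and 3778 to 4381 CPM in siCtl libraries of PyMT-1099 LT, with Epcam and Cldn7 at 0 in all 4. Their sums were 1286 to 1293 and 1126 to 1230 CPM in MT∆Ecad, and 2992 to 3854 and 2727 to 3247 CPM in Py2T LT. Of the 7 immune markers 2 reached 1 CPM, Csf1r and Cd68, and Ptprc stayed at or below 0.0571 CPM. The 7 immune markers summed to 7.47 to 8.37 CPM in siNrf2 and 4.87 to 4.96 CPM in siCtl libraries of MT∆Ecad. The same sums were 25.1 to 34.7 and 15.7 to 21.1 CPM in Py2T LT, and 47.2 to 48.4 and 28.3 to 33.3 CPM in PyMT-1099 LT. The 5 endothelial markers summed to 122 to 124 CPM in siNrf2 and 88.0 to 90.7 CPM in siCtl libraries of PyMT-1099 LT, mostly through Cdh5. The part of any of these markers in the results below was not tested. In bulk RNA, fewer cells of a kind and less RNA per cell cannot be told apart.

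**Figure D1:**
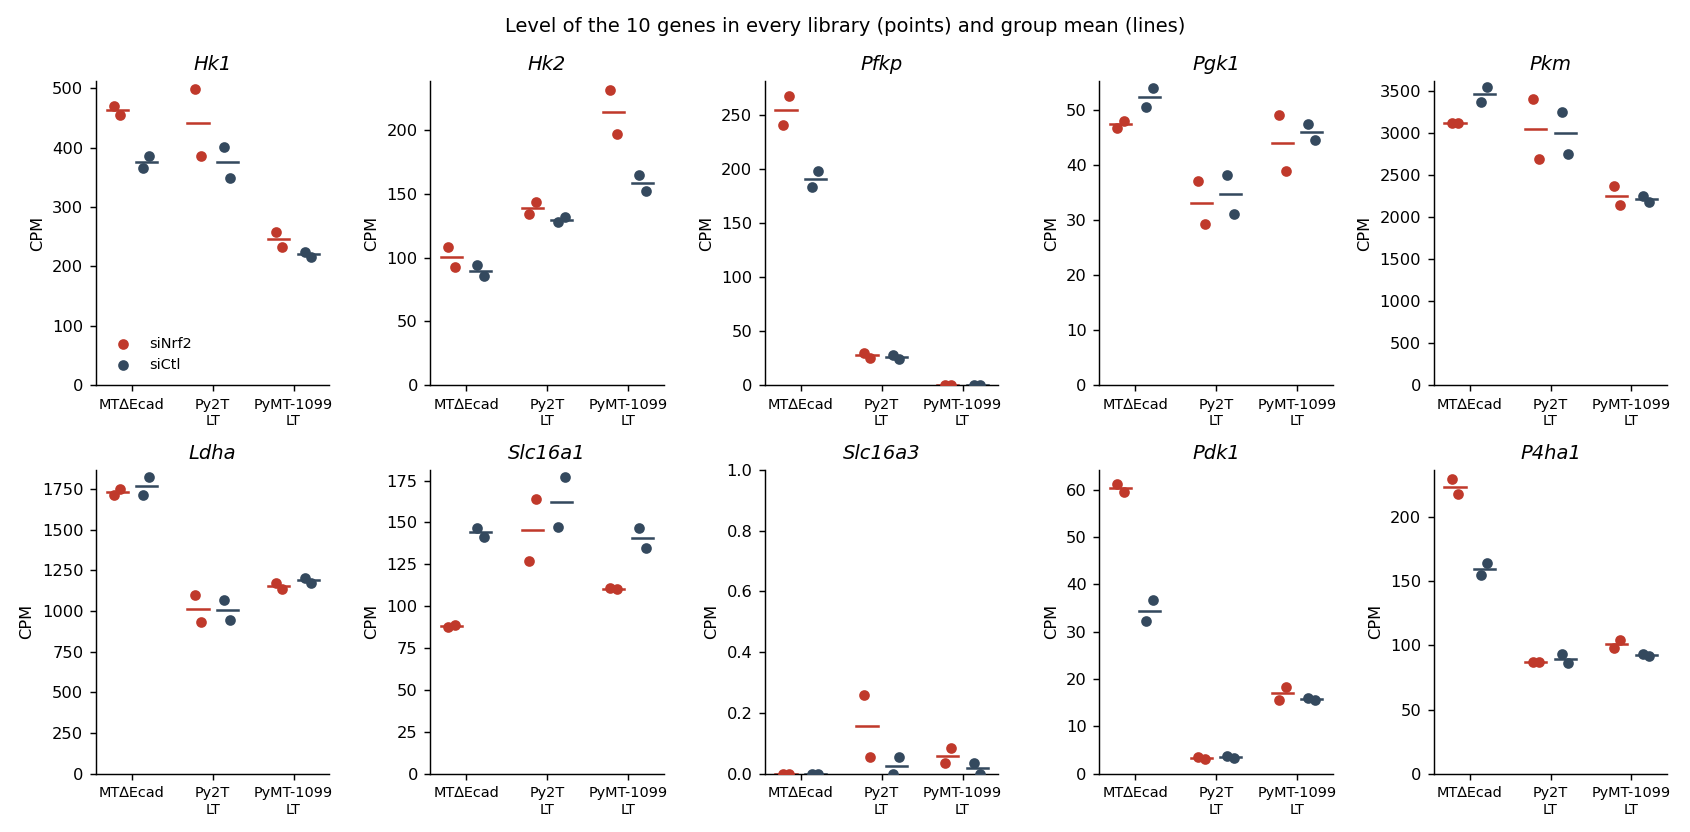
CPM (linear axes from 0) of each of the 10 genes in every library, by line, with siNrf2 (red) left of siCtl (blue); points are libraries and lines are the means of 2. Slc16a1 is lower and Pdk1, P4ha1 and Pfkp are higher in both siNrf2 libraries of MT∆Ecad than in both siCtl libraries, Pfkp is at 0.2 CPM or less in PyMT-1099 LT, and Slc16a3 stays at or below 0.26 CPM.

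The lactate transporter fell with siNrf2. Slc16a1 (Entrez 20501, GRCm38 chromosome 3, 104638664 to 104658462) had 87.8 and 88.5 CPM in siNrf2 cultures of MT∆Ecad, against 147 and 141 CPM in siCtl cultures. In Py2T LT it had 127 and 164 CPM with siNrf2 and 147 and 177 CPM with siCtl. In PyMT-1099 LT it had 111 and 110.4 CPM with siNrf2 and 147 and 135 CPM with siCtl. Both siNrf2 libraries lay below both siCtl libraries in MT∆Ecad and PyMT-1099 LT, and the libraries overlapped in Py2T LT, where replicate 1 was the lower of the pair under either siRNA. Between libraries with the same replicate number, Slc16a1 was lower with siNrf2 in 6 of 6 pairs.

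On the log2(CPM + 1) scale, used for every fold change here, Slc16a1 fell by 0.40 over the mean of the 3 lines (SE 0.073, n = 2 libraries in each of 6 groups, limma with Benjamini-Hochberg adjustment over 12502 tested genes, adjusted p = 0.011). It was called in each of the 12 fits that leave out 1 library, with adjusted p between 0.0045 and 0.042. In MT∆Ecad alone it fell by 0.70 (SE 0.127, adjusted p = 0.0071, limma), to 61.1% of the siCtl mean. That call was lost without MT∆Ecad siCtl replicate 1 or siNrf2 replicate 2, where the adjusted p reached 0.063. The difference was −0.35 in PyMT-1099 LT (SE 0.127, limma adjusted p = 0.38) and −0.16 in Py2T LT (limma adjusted p = 1.0). With same-numbered libraries of a line paired as a block, the limma adjusted p was 0.21 in Py2T LT and 0.017 in PyMT-1099 LT.

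Slc16a1 made up at least 99.8% of the monocarboxylate transporter messages per exon length in every group, over Slc16a1, Slc16a3, Slc16a7 and Slc16a8. Slc16a3 encodes MCT4, the transporter that hypoxic cells are known to use for lactate export. It was at 0 in all 4 MT∆Ecad libraries, at 0.258 and 0.0558 CPM in siNrf2 and at 0 and 0.054 CPM in siCtl libraries of Py2T LT, and at 0.0341 and 0.0842 CPM in siNrf2 and 0.0359 and 0 CPM in siCtl libraries of PyMT-1099 LT. A count of 0 allows a CPM of up to 0.0809 to 0.111 in these libraries, taking 3 reads as its limit and counting error only, so apart from 0.258 CPM in 1 library these values lie at or under 3 reads. Slc16a3 did not reach a CPM of 1 in 2 libraries, and it was the 1 member of 10 that was not tested.

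Pdk1, an oxygen-regulated kinase that inhibits the pyruvate dehydrogenase complex, rose in MT∆Ecad. Pdk1 (Entrez 228026, GRCm38 chromosome 2, 71873215 to 71903858) had 61.3 and 59.4 CPM in siNrf2 cultures of MT∆Ecad, against 32.2 and 36.7 CPM in siCtl cultures, a ratio of means of 1.75. In Py2T LT it had 3.58 and 3.10 CPM with siNrf2 and 3.68 and 3.29 CPM with siCtl. In PyMT-1099 LT it had 15.6 and 18.3 CPM with siNrf2 and 16.0 and 15.6 CPM with siCtl. The siRNA groups were separate in MT∆Ecad and overlapped in the other 2 lines.

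The rise of Pdk1 in MT∆Ecad was 0.79 (SE 0.118, n = 2 against 2, limma adjusted p = 0.0031) and stayed called in all 12 fits without 1 library. Over the 3 lines it was 0.28 (SE 0.068, limma adjusted p = 0.031). This average call held in 3 of the 12 fits without 1 library, those without PyMT-1099 LT siNrf2 replicate 1, Py2T LT siNrf2 replicate 2 or MT∆Ecad siCtl replicate 2. In the other 9 its adjusted p reached 0.094, and edgeR on the recovered reads gave 0.056. The effect was 0.84 larger in MT∆Ecad than in Py2T LT (SE 0.167, 95% interval 0.46 to 1.22, limma adjusted p = 0.033) and 0.70 larger than in PyMT-1099 LT (interval 0.32 to 1.07, limma adjusted p = 0.081, and 0.017 with the replicate block).

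P4ha1 also rose in MT∆Ecad. P4ha1 (Entrez 18451, GRCm38 chromosome 10, 59323197 to 59373304) had 229.5 and 218 CPM in siNrf2 cultures of MT∆Ecad, against 155 and 164 CPM in siCtl cultures. In Py2T LT it had 87.0 and 87.3 CPM with siNrf2 and 93.1 and 85.9 CPM with siCtl. In PyMT-1099 LT it had 97.6 and 104 CPM with siNrf2 and 93.1 and 91.8 CPM with siCtl. Both siNrf2 libraries lay above both siCtl libraries in MT∆Ecad and, by a small margin, in PyMT-1099 LT.

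P4ha1 rose by 0.49 in MT∆Ecad (SE 0.077, limma adjusted p = 0.0041, called in all 12 fits without 1 library) and by 0.19 over the 3 lines (SE 0.0445, limma adjusted p = 0.027). The average call held in 5 of the 12 fits without 1 library, those without PyMT-1099 LT siNrf2 replicate 1, either Py2T LT siNrf2 replicate, Py2T LT siCtl replicate 1 or MT∆Ecad siCtl replicate 2, and the adjusted p of the rest reached 0.088. The effect was 0.52 larger in MT∆Ecad than in Py2T LT (SE 0.109, 95% interval 0.28 to 0.77, limma adjusted p = 0.037). That difference between lines passed in none of the 12 fits without 1 library, with adjusted p from 0.054 to 0.17, and it passed in 3 of them for Pdk1. With edgeR on the recovered reads the adjusted p was 0.11 for P4ha1 and 0.093 for Pdk1, and with DESeq2 0.026 for both. Another catalytic chain, P4ha2, differed by 0.18 in MT∆Ecad (limma adjusted p = 0.31), and P4hb, the beta chain of the enzyme, by 0.32 (limma adjusted p = 0.11), and neither was called. Of P4ha1 and P4ha2 summed per exon length, P4ha1 made up 85.0% in siNrf2 and 82.1% in siCtl cultures of that line. No further catalytic chain was looked up.

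Of the hexokinases, in the fit without pairing, Hk2 was called over the 3 lines at the edge of the threshold and Hk1 was not called. Hk2 (Entrez 15277, GRCm38 chromosome 6, 82725025 to 82774454), the inducible hexokinase of tumours, had 108 and 92.3 CPM with siNrf2 and 94.2 and 85.6 CPM with siCtl in MT∆Ecad. It had 134 and 144 CPM with siNrf2 and 128 and 132 CPM with siCtl in Py2T LT, and 231 and 197 CPM with siNrf2 and 165 and 152 CPM with siCtl in PyMT-1099 LT. The siNrf2 libraries lay above both siCtl libraries in Py2T LT and PyMT-1099 LT and overlapped them in MT∆Ecad. Hk2 rose by 0.23 over the 3 lines (SE 0.063, limma adjusted p = 0.049), a value at the threshold. The limma adjusted p was 0.052 with a pseudocount of 0.25 and 0.065 without a filter, and that of edgeR was 0.055. It was called in 1 of 12 fits without 1 library, the one without PyMT-1099 LT siNrf2 replicate 2, and in the other 11 its adjusted p reached 0.12. In PyMT-1099 LT the difference was 0.43 (SE 0.110, limma adjusted p = 0.18, and 0.0093 with the replicate block).

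Hk1 (Entrez 15275, GRCm38 chromosome 10, 62268855 to 62379920), the hexokinase found in most tissues, had 470.1 and 456 CPM with siNrf2 and 366 and 386 CPM with siCtl in MT∆Ecad. In Py2T LT it had 498 and 385 CPM with siNrf2 and 401 and 349 CPM with siCtl, and in PyMT-1099 LT 258 and 233 CPM with siNrf2 and 224 and 216 CPM with siCtl. In Py2T LT the 2 siNrf2 replicates lay further apart than either same-number pair of siNrf2 and siCtl, and Hk1 was higher with siNrf2 in 6 of 6 same-number pairs. The difference over the 3 lines was 0.23 (SE 0.071, limma adjusted p = 0.068), and with the replicate block it was called (adjusted p = 0.0026, limma). Per exon length the summed hexokinases stood at 71.2 ± 3.08 CPM per kb in siNrf2 and 59.3 ± 0.654 in siCtl cultures of MT∆Ecad, 75.1 ± 8.23 and 65.8 ± 3.89 in those of Py2T LT, and 64.7 ± 6.09 and 52.4 ± 2.19 in those of PyMT-1099 LT (SD, n = 2 each).

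Among the later enzymes, Pfkp was called in MT∆Ecad, and Pgk1, Pkm and Ldha were called in no siNrf2 comparison of the limma fit without pairing. Pfkp (Entrez 56421, GRCm38 chromosome 13, 6579874 to 6649060), the platelet-type phosphofructokinase, had 241 and 268 CPM in siNrf2 cultures of MT∆Ecad, against 183 and 197 CPM in siCtl cultures. It rose by 0.41 there (SE 0.117, limma adjusted p = 0.041). That call held in 2 of 12 fits without 1 library, those without either Py2T LT siNrf2 replicate, and in the rest the adjusted p reached 0.26. The adjusted p was 0.0503 with edgeR, and with limma 0.069 at a pseudocount of 0.25 and 0.055 without a filter or with TMM factors. In Py2T LT it had 29.7 and 25.03 CPM with siNrf2 and 27.7 and 24.4 CPM with siCtl, and in PyMT-1099 LT 4 to 7 reads in each library.

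Pkm (Entrez 18746, GRCm38 chromosome 9, 59656576 to 59679372), the pyruvate kinase of proliferating cells, had 3125 and 3129 CPM with siNrf2 and 3375 and 3553 CPM with siCtl in MT∆Ecad. The difference of −0.15 was not called (SE 0.122, limma adjusted p = 0.49) and was called with the replicate block (adjusted p = 0.042, limma). In Py2T LT Pkm had 3404 and 2699 CPM with siNrf2 and 3259.8 and 2748 CPM with siCtl, and in PyMT-1099 LT 2372 and 2146 CPM with siNrf2 and 2252 and 2183 CPM with siCtl. The siRNA groups overlapped in both.

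Ldha (Entrez 16828, GRCm38 chromosome 7, 46842274 to 46855627), which makes lactate, had 1715 and 1747 CPM with siNrf2 and 1713 and 1823 CPM with siCtl in MT∆Ecad. It had 1099 and 929 CPM with siNrf2 and 1067 and 945 CPM with siCtl in Py2T LT, and 1173 and 1132 CPM with siNrf2 and 1205 and 1172 CPM with siCtl in PyMT-1099 LT. The 95% interval of its average difference ran from −0.15 to 0.10 (limma adjusted p = 0.85). Pgk1 (Entrez 18655, GRCm38 chromosome X, 106187100 to 106203699) had 46.9 and 48.1 CPM with siNrf2 and 50.7 and 54.1 CPM with siCtl in MT∆Ecad, and its average difference ran from −0.29 to 0.10 (limma adjusted p = 0.55). RefSeq names 3 pseudogenes after each of Pgk1 and Ldha, and how reads shared with them were counted is not given in the sources used here, so the levels of both are uncertain.

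**Figure D2:**
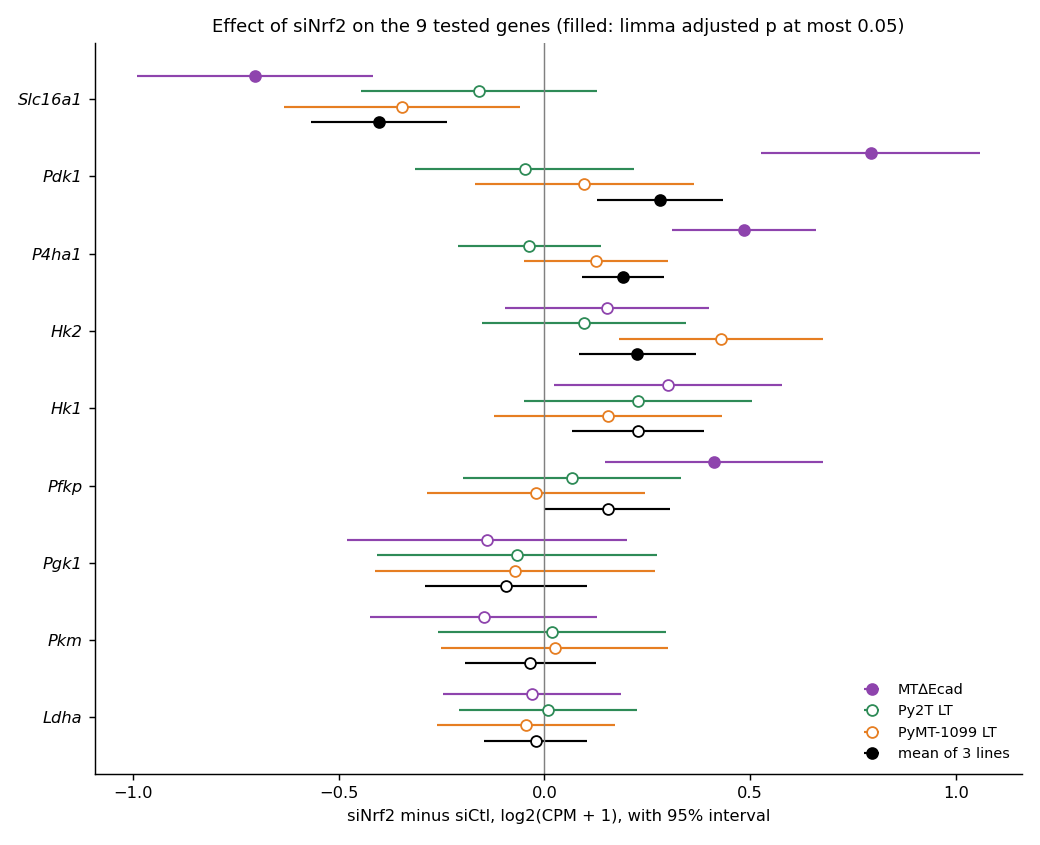
Difference of siNrf2 minus siCtl in log2(CPM + 1), with its 95% limma interval, for the 9 tested genes in each line and for the mean of the 3 lines; filled points have an adjusted p of at most 0.05. Slc16a1 lies left of 0 with filled points at −0.70 in MT∆Ecad and −0.40 for the mean, and Pdk1 and P4ha1 have filled points at 0.79 and 0.49 in MT∆Ecad.

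Of the 9 members that passed the filter, 4 were called over the mean of the 3 lines, 3 higher and 1 lower, where 12.3% of all tested genes were called, 5.99% higher and 6.26% lower. The median difference of the 9 was 0.15, with a range of −0.40 to 0.28, and that of all tested genes was −0.01. In MT∆Ecad 4 of 9 were called, 3 higher and 1 lower, where 17.3% of tested genes were called, 8.89% higher and 8.42% lower. In Py2T LT limma called 0 of 9, with 0 at an unadjusted p under 0.05 and 0 called by edgeR or DESeq2, where 0.152% of tested genes were called. In PyMT-1099 LT limma called 0 of 9, with 2 (Hk2 and Slc16a1) at an unadjusted p under 0.05 and 0 called by edgeR or DESeq2, where 0.52% were called.

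With the replicate block, 6 of 9 members were called over the mean of the 3 lines (Hk1, Hk2, Pfkp, Slc16a1, Pdk1 and P4ha1), where 40.0% of tested genes were called. The adjusted p of Pfkp was 0.022 in that fit and 0.17 in the limma fit without the block. In MT∆Ecad the block called 6 of 9, with Hk1 (adjusted p = 0.0059, limma) and Pkm added (42.6% of tested genes). In PyMT-1099 LT it called Hk2 and Slc16a1 (9.0%), and in Py2T LT 0 of 9 (1.02%), with 2 at an unadjusted p under 0.05. By position alone, both siNrf2 libraries lay beyond both siCtl libraries for 7 of 9 members in MT∆Ecad, 1 in Py2T LT and 4 in PyMT-1099 LT, against 65.3%, 23.5% and 37.1% of tested genes. No member had both siNrf2 libraries above, or both below, in all 3 lines, against 2.39% and 4.15% of tested genes.

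Whether the effect of siNrf2 differed between the lines was tested with limma's F test over the 3 lines. It called 0 of 9 members (2.18% of tested genes), with 3 at an unadjusted p under 0.05, Slc16a1, Pdk1 and P4ha1, whose adjusted p were 0.29, 0.057 and 0.078. The F test of edgeR called 0 and the corresponding test of DESeq2 called 1, Pdk1 (adjusted p = 0.022). With the replicate block it called 5 of 9, Hk2, Pfkp, Slc16a1, Pdk1 and P4ha1 (19.0% of tested genes), where the effect of Pfkp in PyMT-1099 LT rests on 4 to 7 reads a library. Between pairs of lines, the effects of Pdk1 and P4ha1 differed between MT∆Ecad and Py2T LT (3.5% of tested genes), as given above, and 0 of 9 were called by limma between MT∆Ecad and PyMT-1099 LT (1.81%) or between Py2T LT and PyMT-1099 LT (0.008%). For Slc16a1 the effect was 0.54 lower in MT∆Ecad than in Py2T LT (95% interval −0.95 to −0.14, limma adjusted p = 0.14, and 0.0043 with the replicate block).

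Under siCtl many of these messages differed in level between the lines, as did 54.4% to 57.6% of all tested genes. Between MT∆Ecad and PyMT-1099 LT, 7 of 9 members differed, 6 higher and Hk2 lower in MT∆Ecad, where 57.6% of all tested genes differed, 27.0% higher and 30.6% lower. Between MT∆Ecad and Py2T LT, 6 of 9 differed, 5 higher and Hk2 lower in MT∆Ecad (54.4% of tested genes, 25.9% higher and 28.6% lower). Between Py2T LT and PyMT-1099 LT, 5 of 9 differed, Hk1, Pfkp and Pkm higher and Pgk1 and Pdk1 lower in Py2T LT (55.6%, 28.1% higher and 27.5% lower). Pfkp is among the members called in both pairs with PyMT-1099 LT, where it had to differ, since it passed the filter only through the other lines. The 3 comparisons share their siCtl libraries, and each rests on 2 cultures of 1 line against 2 of another.

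Pfkp and Pdk1 differed widely between the lines. The Pfkp siCtl mean was 190 ± 9.92 CPM in MT∆Ecad, 26.02 ± 2.32 in Py2T LT and 0.172 ± 0.0399 in PyMT-1099 LT (SD, n = 2 each), and it passed the filter only through the first 2 lines. The log2(CPM + 1) difference was 2.83 between MT∆Ecad and Py2T LT (limma adjusted p = 3.5e-08). Between Py2T LT and PyMT-1099 LT it was 4.53, given as a description because PyMT-1099 LT had so few reads. Pdk1 averaged 34.5 ± 3.18 CPM in MT∆Ecad, 3.48 ± 0.273 in Py2T LT and 15.8 ± 0.280 in PyMT-1099 LT, differences of 2.98 (limma adjusted p = 2.5e-08) between MT∆Ecad and Py2T LT and −1.90 (limma adjusted p = 5.6e-07) between Py2T LT and PyMT-1099 LT. Both orders held without overlap of single libraries.

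P4ha1 averaged 159 ± 6.55 CPM in MT∆Ecad, 89.5 ± 5.04 in Py2T LT and 92.4 ± 0.947 in PyMT-1099 LT, and the last 2 were not called different (95% interval −0.22 to 0.13). Hk2 ran the other way, with 89.9 ± 6.11 CPM in MT∆Ecad, 130 ± 2.45 in Py2T LT and 159 ± 8.96 in PyMT-1099 LT. MT∆Ecad was lower than Py2T LT by 0.53 (limma adjusted p = 0.0027), and Py2T LT lay 0.29 below PyMT-1099 LT, short of the threshold (limma adjusted p = 0.051). Slc16a1, the member that siNrf2 lowered most, was not called different between the lines. It had 144 ± 3.91, 162 ± 21.2 and 141 ± 8.42 CPM in MT∆Ecad, Py2T LT and PyMT-1099 LT. The limma intervals of the 3 pairs lay within −0.45 and 0.48, and differences inside them can pass unseen.

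Hk1 was 0.77 higher in MT∆Ecad and 0.76 higher in Py2T LT than in PyMT-1099 LT (limma adjusted p = 0.00048 and 0.00053). Pkm was 0.64 higher in MT∆Ecad than in PyMT-1099 LT (limma adjusted p = 0.0015). Ldha was 0.81 higher in MT∆Ecad than in Py2T LT and 0.57 higher than in PyMT-1099 LT (limma adjusted p = 6.9e-05 and 0.00066). Between Py2T LT and PyMT-1099 LT the call of Pgk1 (−0.40, limma adjusted p = 0.046) was lost in 7 of 12 fits without 1 library, where it reached 0.26, and that of Pkm (0.43, limma adjusted p = 0.014) without Py2T LT siCtl replicate 1 or PyMT-1099 LT siCtl replicate 2, where it reached 0.11. Without PyMT-1099 LT siCtl replicate 2 the count of this pair of lines was 3 of 9 in place of 5.

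Per exon length, the order of the members under siCtl was led by Pkm and Ldha in every line. Pkm stood at 693, 601 and 443 CPM per kb in MT∆Ecad, Py2T LT and PyMT-1099 LT, and Ldha at 534, 304 and 359. Hk1, Slc16a1 and P4ha1 followed in MT∆Ecad with 44.0, 32.6 and 38.8 CPM per kb, and Pgk1, Hk2, Pfkp and Pdk1 with 23.3, 15.1, 14.2 and 4.43. Pkm was more abundant in CPM than 99.8% of tested genes in PyMT-1099 LT and 99.9% in the other lines, and Pdk1 in Py2T LT than 19.5%.

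The lines also used different isozymes beside the members. Of the phosphofructokinase messages per exon length under siCtl, Pfkl, Pfkm and Pfkp made up 42.1%, 39.0% and 18.8% in MT∆Ecad. Pfkl made up 74.1% and Pfkm 22.5% in Py2T LT, and Pfkm 71.9% and Pfkl 28.0% in PyMT-1099 LT. The length joins the exons of all transcripts of a gene, 6675 nt for Pfkl, 3340 for Pfkm and 13401 for Pfkp, and the shares depend on it. In CPM, the siCtl means of Pfkl, Pfkm and Pfkp in MT∆Ecad were 212, 98.4 and 190. The summed phosphofructokinases of MT∆Ecad stood at 95.5 ± 0.688 CPM per kb with siNrf2 and 75.4 ± 1.45 with siCtl (SD, n = 2 each), and with siNrf2 the shares of Pfkl, Pfkm and Pfkp were 41.8%, 38.4% and 19.9%. Per exon length under siCtl, Pdk3 was the most abundant pyruvate dehydrogenase kinase in every line. It made up 62.3% of the pool in MT∆Ecad, 93.9% in Py2T LT and 71.9% in PyMT-1099 LT. The exon lengths were 7779 nt for Pdk1 and 2561 nt for Pdk3. In CPM, Pdk1 and Pdk3 averaged 60.4 and 56.8 with siNrf2 and 34.5 and 50.8 with siCtl in MT∆Ecad. In MT∆Ecad Pdk1 made up 18.7% of this pool with siNrf2 and 13.9% with siCtl, and Pdk3 53.5% and 62.3%. Ldhb, the other lactate dehydrogenase subunit, was at 0 in all 4 PyMT-1099 LT libraries and made up 3.19% of the pool with siNrf2 and 2.52% with siCtl in MT∆Ecad.

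**Figure D3:**
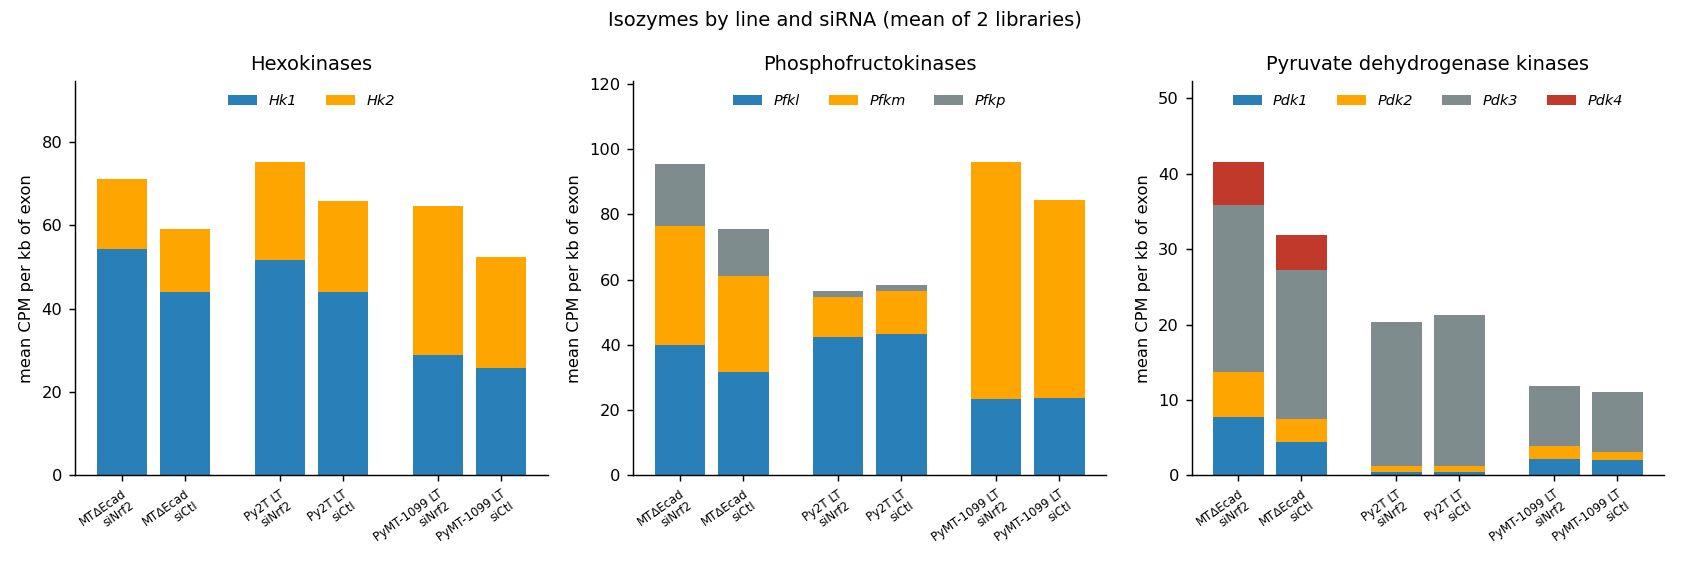
Mean CPM per kb of exon (stacked bars from 0, means of 2 libraries) of the hexokinases, phosphofructokinases and pyruvate dehydrogenase kinases, by line, with siNrf2 left of siCtl. The phosphofructokinase pool is mostly Pfkl in Py2T LT, mostly Pfkm in PyMT-1099 LT and split over 3 isozymes in MT∆Ecad, and Pdk4 shows in MT∆Ecad only at this scale.

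The other enzymes of glycolysis moved little on average. Of 20 further glycolytic enzymes 15 were tested, and limma called 0 over the mean of the 3 lines, with 6 at an unadjusted p under 0.05, 0 called by edgeR and 1 by DESeq2. In MT∆Ecad 3 of 15 were called, near the 17.3% of all tested genes, and they are named here after their values were seen. Eno2, an enolase, rose by 0.68 (22.9 and 22.7 CPM with siNrf2, 11.9 and 16.1 with siCtl, limma adjusted p = 0.018). It was at or below 0.607 CPM in the other lines and passed the filter only through MT∆Ecad. Libraries so near 0 add little to the spread that the 6 groups share, so this adjusted p can be too small. Pfkm rose by 0.31 (limma adjusted p = 0.025). Gapdh fell by 0.35 (2.68 and 2.41 CPM with siNrf2, 3.50 and 3.54 with siCtl, limma adjusted p = 0.033), a low level for an enzyme that most cells express strongly; how reads that its many pseudogenes share were counted is not given in the sources used here. The median of the 15 was 0.01 in MT∆Ecad, and that of all tested genes was 0.00.

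Of 15 further glucose and lactate transport genes 8 were tested, and 2 were called higher on average and 0 lower, against 5.99% and 6.26% of all tested genes. Slc2a8, a glucose transporter of internal membranes, rose by 0.38 (limma adjusted p = 0.031), and the other called gene was Emb, a chaperone that carries monocarboxylate transporters to the membrane. Emb had 28.1 and 37.6 CPM with siNrf2 and 16.9 and 18.01 CPM with siCtl in MT∆Ecad and was at 0 in the 8 libraries of the other lines. It passed the filter only through MT∆Ecad, so its average of 0.29 comes from that line alone, where it rose by 0.86 (limma adjusted p = 0.0026). The fit shares 1 spread per gene over the 6 groups, and the 8 libraries at 0 add none. Its adjusted p can therefore be too small, and its calls are given as a description. Slc2a6 was called beside these in MT∆Ecad (0.80, limma adjusted p = 0.048, named after its values were seen). Slc2a1, the main glucose transporter of tumours, had 156 and 149.6 CPM with siNrf2 and 157 and 160 CPM with siCtl in MT∆Ecad. Bsg, the other chaperone of MCT1, differed by 0.35 in MT∆Ecad and was not called (limma adjusted p = 0.11).

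Of 18 genes of pyruvate entry and glycolytic control, all tested, Pdk2 rose on average (0.48, limma adjusted p = 0.017) and 0 fell. Pdk2 had 17.8 and 19.9 CPM with siNrf2 and 7.84 and 11.2 CPM with siCtl in MT∆Ecad. In that line 4 of 18 were called, against 17.3% of all tested genes, Pdk2 and Mpc2, a subunit of the mitochondrial pyruvate carrier, higher, and Pfkfb3 and Tigar lower, the last 3 named after their values were seen. Pfkfb3, which makes the activator of phosphofructokinase, had 8.45 and 9.24 CPM with siNrf2 and 18.4 and 14.4 CPM with siCtl, a fall of 0.81 (limma adjusted p = 0.0039). Its effect differed between lines (limma F test, adjusted p = 0.039), with differences of 0.16 in Py2T LT and 0.10 in PyMT-1099 LT.

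Of 31 further hypoxia-responsive genes 30 were tested. On average 4 rose and 0 fell, with a median of 0.09, where 5.99% of all tested genes were called higher and 6.26% lower. They were Angptl4, a lipase inhibitor (0.65, limma adjusted p = 0.0099), Ddit4, an inhibitor of mTOR signalling (0.47, limma adjusted p = 0.048), Plod1, a collagen lysyl hydroxylase (0.36, limma adjusted p = 0.017), and Bhlhe40, a transcriptional repressor (0.36, limma adjusted p = 0.044). In MT∆Ecad 8 of 30 rose and 1, Pfkfb3, fell, where 8.89% of all tested genes were called higher and 8.42% lower, and the median was 0.18. The 8 include Lox, which was at or below 0.171 CPM in the other lines and passed the filter only through MT∆Ecad. Angptl4 had 3.53 and 2.91 CPM with siNrf2 and 0.454 and 0.591 CPM with siCtl in MT∆Ecad, a difference of 1.47 from a low level. In Py2T LT it had 88.7 and 63.7 CPM with siNrf2 and 86.8 and 62.3 CPM with siCtl, a difference of 0.03. In PyMT-1099 LT it had 14.9 and 12.7 CPM with siNrf2 and 10.2 and 9.66 CPM with siCtl. Others of the list that were not called there include Vegfa, Adm and Egln3, with differences of 0.33, 0.04 and −0.21. In Py2T LT and PyMT-1099 LT limma called 0 of 30, with 1 and 4 at an unadjusted p under 0.05, and edgeR and DESeq2 called 0.

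Of 9 tested hypoxia-inducible factors and regulators, 1 rose on average, Epas1, which encodes a hypoxia-inducible factor alpha subunit (0.45, limma adjusted p = 0.015). Epas1 had 200.1 and 236 CPM with siNrf2 and 66.9 and 83.2 CPM with siCtl in MT∆Ecad, a rise of 1.53 (limma adjusted p = 0.00056), and its effect differed between lines (limma F test, adjusted p = 0.0096). It had 5.78 and 6.19 CPM with siNrf2 and 8.06 and 7.77 CPM with siCtl in Py2T LT, and 15.0 and 17.8 CPM with siNrf2 and 12.8 and 16.1 CPM with siCtl in PyMT-1099 LT. Arnt, the shared beta subunit, rose by 0.41 in MT∆Ecad (limma adjusted p = 0.011, named after its values were seen). Hif1a had 173 and 156 CPM with siNrf2 and 174 and 151 CPM with siCtl there, and the siRNA groups overlapped. The 5 lists share genes with each other (Pfkfb3, Pfkfb4, Slc2a1, Egln1 and Egln3), which count in each. With the replicate block, which called 40.0% of all tested genes on average and 42.6% in MT∆Ecad, the genes called higher and lower on average numbered 4 and 3 of the glycolytic enzymes, 4 and 0 of the transport genes, 3 and 3 of pyruvate entry and control, 12 and 4 of the hypoxia-responsive genes and 5 and 2 of the factors and regulators. In MT∆Ecad the block called 4 higher and 3 lower, 5 and 0, 3 and 2, 16 and 3, and 5 and 2 of the same lists in that order.

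**Figure D4:**
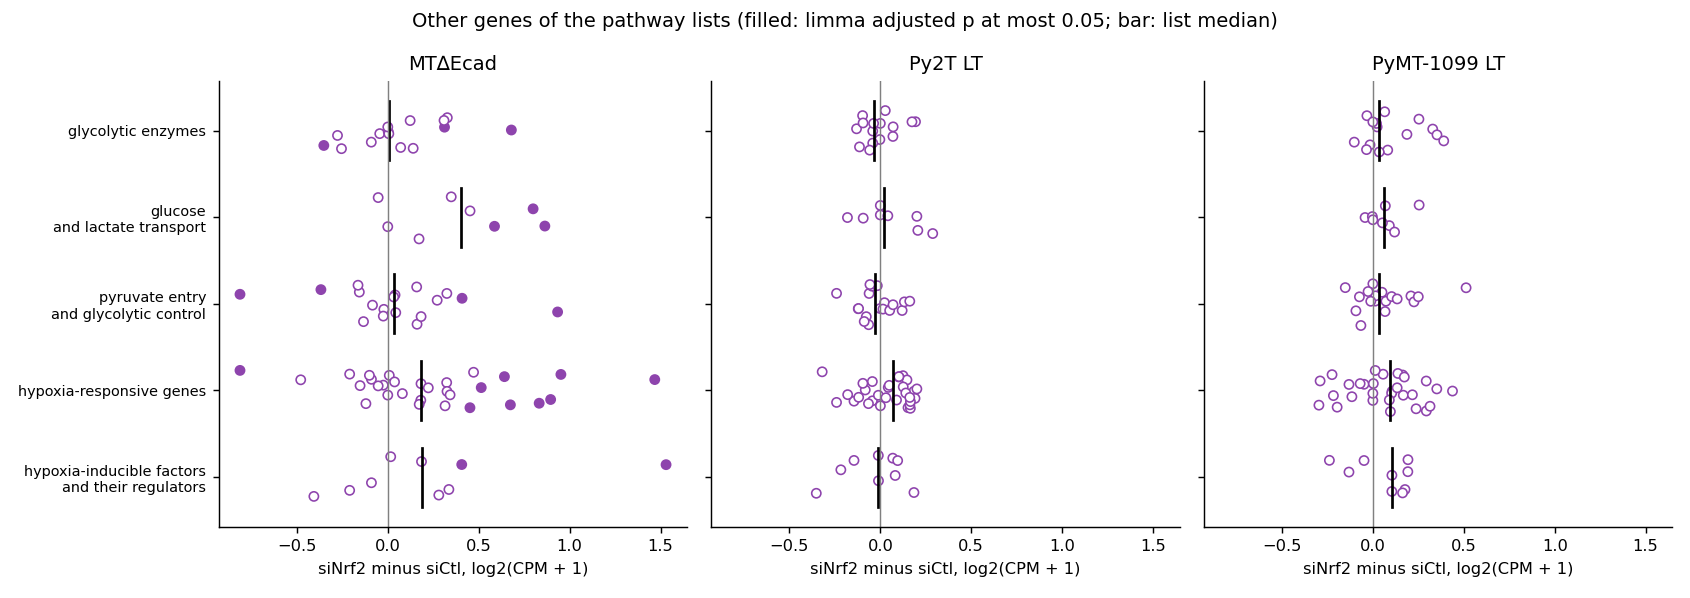
Difference of siNrf2 minus siCtl in log2(CPM + 1) of the tested genes of the 5 lists, without the 10 members, in each line; filled points have a limma adjusted p of at most 0.05 and bars are list medians. Filled points appear in MT∆Ecad only in these panels, 8 of the hypoxia-responsive genes to the right of 0 and 1 to the left, and 0 genes are filled in the other 2 lines.

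The genes whose level followed a member most closely were ranked by the Pearson correlation of log2(CPM + 1), centred on each line, over the 12 libraries among 9227 tested genes with a mean of at least 10 CPM. For Pdk1 the closest gene was P4ha1 (r = 0.976), followed by Tnxb and Sync, and for P4ha1 it was Pdk1, followed by Btrc and Hs3st1. For Slc16a1 they were Sgms2 (r = 0.983), Idh3a and Tmpo, and for Hk2 Degs1 (r = 0.955), Cldn12 and Atp6v1h. Slc16a1 ran against Pdk1 (r = −0.87) and P4ha1 (r = −0.88). Hk2 followed neither closely, with r of 0.26 for Pdk1 and 0.41 for P4ha1. These values describe 12 libraries that share 3 lines and 2 siRNAs. The members were those called with siNrf2, and the values were not centred on the siRNA. Each r therefore includes the siRNA effect and is no separate support for it.

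The 3′ untranslated regions were searched for 2 words of 7 bases, chosen with earlier results of these data known. None of the 9 tested members holds ACCATTT or GAGAAGT in its annotated 3′ untranslated region (GENCODE M21), and Slc16a3 holds ACCATTT. The tested genes that hold ACCATTT had a median average difference of −0.06, those that hold GAGAAGT −0.04, and those that hold neither 0.01.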

How the data were processed

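The table the authors deposited gives CPM (counts per 1000000 reads), with 24454 rows of Entrez IDs and 12 columns. Reads of 81 nt from ribosome-depleted, stranded total RNA libraries (200 ng input, per the labels' protocols) are reported as STAR alignments on mm10 (submitters' processing notes). The counting tool, its annotation and its use of strand are not given in the sources used here. Whole reads were recovered from the smallest CPM steps: 100.0% of values were whole within 0.01 of a read, which gives 27.1 to 37.1 reads per CPM. Symbols came from RefSeq (24374 IDs) and GENCODE M21 (7), and 73 IDs had none. Exon lengths came from GENCODE M21 and join the exons of all transcripts of a gene.

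Genes that reached 1 CPM in 2 or more libraries (12502) were compared as log2(CPM + 1) with limma 3.58.1 in R 4.3.3: 6 group means, empirical Bayes with a mean trend, 6 residual degrees of freedom, two-sided tests, Benjamini-Hochberg adjustment and a threshold of 0.05. The script was tested on simulated data. The members and lists were chosen with earlier results of these data known. Named beside the 10 members are up to 5 called average changes of each list and the 3 closest genes of each member called on average. The series text calls the replicates biological, and p-values measure the spread between these cultures.

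Same-numbered siNrf2 and siCtl libraries deviated together from their group means, with r of 0.625 in MT∆Ecad, 0.846 in Py2T LT and 0.778 in PyMT-1099 LT, all over 0.1, so the numbers were taken to pair them. The fit with this block has 3 residual degrees of freedom. Replicates differed by more than read sampling, with chi-squared means of 15.6 to 84.8 per gene. Alternatives were a pseudocount of 0.25, no filter, a filter at 5 CPM, TMM factors, edgeR 4.0.16, DESeq2 1.42.0, the block, and leaving out each library. On the recovered reads edgeR called 856 genes over the mean of the 3 lines and DESeq2 1264, against 1532 by limma.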

Additional observations from a re-analysis of the deposited data

Results flagged for a closer look

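The effect of siNrf2 differed between MT∆Ecad and Py2T LT for 2 members, by limma's test of the difference itself. For Pdk1 it was 0.84 larger on the log2(CPM + 1) scale in MT∆Ecad (0.79 in MT∆Ecad and −0.05 in Py2T LT, adjusted p = 0.033, limma). For P4ha1 it was 0.52 larger (0.49 in MT∆Ecad and −0.04 in Py2T LT, adjusted p = 0.037, limma). Pdk1 had 3.10 to 3.68 CPM in Py2T LT, where the added 1 of the log2 scale takes up more of a change than at the 32.2 to 61.3 CPM of MT∆Ecad. Taken without the added 1, its ratio of mean CPM, siNrf2 over siCtl, was 0.959 for Py2T LT, against 1.75 for MT∆Ecad. How much of the 0.84 comes from the added 1 was not tested. Neither of the 2 differences between lines was called by edgeR, and both were called by DESeq2. The call held in 3 of 12 fits without 1 library for Pdk1 and in 0 for P4ha1. Over the 3 lines, limma's F test called 0 of 9 members.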

How the results depend on the processing

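Of the 8 counts of called members, all 8 stayed within 1.5 times under the pseudocount of 0.25, no filter, the filter at 5 CPM and TMM factors. edgeR called 2 of 9 members over the mean of the 3 lines in place of 4, Slc16a1 and P4ha1. DESeq2 called 1 member in the F test between lines in place of 0. The paired fit with the replicate block called 2 members in PyMT-1099 LT and 5 in the F test, in place of 0 in each, and changed the call of 6 single effects, all given above, by adding it. No blocked value exists for the differences in siCtl level between lines, because each pair lies within a line. Leaving out 1 library gave 1 to 4 called members over the mean of the 3 lines, 2 to 5 in MT∆Ecad and 3 to 7 between siCtl cultures of Py2T LT and PyMT-1099 LT. The fewest over the mean, 1, came without PyMT-1099 LT siCtl replicate 1 or 2, Py2T LT siCtl replicate 2, or any of MT∆Ecad siNrf2 replicate 1, siNrf2 replicate 2 and siCtl replicate 1. Over all tested genes, limma called 1532 on average, 2164 in MT∆Ecad, 19 in Py2T LT, 65 in PyMT-1099 LT and 273 in the F test. edgeR called 856, 1600, 6, 13 and 20 in the same order, DESeq2 1264, 1864, 33, 87 and 281, and limma with the block 4997, 5324, 127, 1125 and 2377.

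Signs turned for uncalled effects only. The average difference of Ldha was 0.0034 with DESeq2, and its MT∆Ecad difference 0.0010 with edgeR. Without 1 library, the average ran from −0.090 to 0.021 for Pkm and from −0.062 to 0.019 for Ldha, and the MT∆Ecad difference of Ldha from −0.074 to 0.015. In PyMT-1099 LT it ran from −0.055 to 0.015 for Pfkp, −0.24 to 0.091 for Pgk1, −0.047 to 0.10 for Pkm and −0.011 to 0.20 for Pdk1. In Py2T LT it ran from −0.051 to 0.19 for Pfkp, −0.23 to 0.10 for Pgk1, −0.15 to 0.19 for Pkm, −0.11 to 0.13 for Ldha, −0.34 to 0.022 for Slc16a1, −0.13 to 0.033 for Pdk1 and −0.094 to 0.020 for P4ha1. The cause was not tested. With 2 cultures a group, small changes in a single line can pass unseen: the 95% interval of Slc16a1 in Py2T LT ran from −0.45 to 0.13.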
